A study of Sus scrofa with 15 samples.

Results

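The transcripts of 5 genes that sense, make, take up or export cholesterol were followed in pig granulosa cells over 5 sampled days of culture. The genes were INSIG1 and SQLE on the side of sensing and synthesis, SCARB1 and NPC2 on the side of uptake, and ABCA1 on the side of efflux. They were chosen as genes by name, with earlier results of these data known, and matched to probe sets that carry a single gene symbol in the array annotation. Shares of all probe sets set beside their counts therefore give scale and are no test. They are 5 of 6765 genes named in this way, and their 8 probe sets are among 23999 tested. Each gene was represented by its probe set with the highest mean over all arrays.

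Granulosa cells surround the egg in the ovarian follicle and make steroid hormones. Per the labels, total RNA came from granulosa cells of porcine follicles on day 0, from dedifferentiating cells on days 1, 2 and 4, and on day 7 from cells that are called DFOG cells. The labels name no treatment, and the groups differ by the time in culture, with 3 arrays for each day and 15 in all, so that day 0 is the only reference and no parallel culture that kept its differentiated state was measured. Breed, age of the animals, any genotype and culture medium are not stated in the labels used here. The replicates are called biological, but separate animals or cultures are not named, so the p values rest on array-to-array spread that may be technical.

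Cholesterol is the starting material of steroid hormones, and granulosa cells obtain it by synthesis, by endocytosis of lipoproteins and by selective uptake from high-density lipoprotein. When membranes of the endoplasmic reticulum hold enough sterol, INSIG proteins retain the escort protein SCAP and the transcription factor SREBP-2 there. When sterol is low, SREBP-2 is released and raises the genes of synthesis and uptake, INSIG1 itself among them. Surplus cholesterol is exported by transporters such as ABCA1, which liver X receptors induce in response to oxysterols.

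Values are log2 intensities per probe set, and each change is a difference of day means on the log2 scale with its standard error (SE). A gene is said to rise or fall when its limma p, adjusted by Benjamini-Hochberg over 23999 probe sets, was under 0.05 and its change was at least 1, which is 2-fold. Array medians lay at 6.40 to 6.55 and lower quartiles at 4.41 to 4.68. The granulosa label was checked on 10 measured markers, whose mean per array lay between 9.47 and 9.58 on day 0 and between 6.39 and 6.49 on day 7, with 6 of 10 lower on day 7 and 0 higher. Of all probe sets 7.28% were called as lower and 9.36% as higher on day 7 against day 0. INHA, the inhibin alpha subunit, stood at 14.26 on day 0, whereas FOXL2 and CYP19A1 stood below the array medians even then, at 5.90 and 5.26. Markers of theca and stroma (9 measured) went from 6.70 to 6.81 per array on day 0 to 8.06 to 8.21 on day 7, with DCN, LUM, COL1A2 and ACTA2 higher and INSL3 and LHCGR lower. The theca enzyme CYP17A1 stayed dim, at 4.99 and 5.29. The actin 3′ minus 5′ difference, a measure of RNA quality or labelling, ran from 0.97 to 1.68 on day 0, lay between 0.19 and 0.59 on day 7, and reached 2.12 in day 4 replicate 2. The same difference of the dap control probe sets was 1.72 to 1.77 on day 0, 1.25 to 1.45 on day 7 and 3.52 in day 4 replicate 2. The part of these markers and of RNA quality or labelling in the changes below was not tested. Leaving out day 4 replicate 2 changed no member's call but ended those of APOE and CYP11A1 on day 4 against day 0 and of PLIN2 on day 4 against day 2. These losses were not particular to that array. The APOE call was also lost without day 4 replicate 3 (limma adjusted p = 0.101) and that of CYP11A1 without day 0 replicate 2 (0.131). The PLIN2 call was lost even without arrays of other days, such as day 7 replicate 2 (0.0688). Replicate 1 of each day lay apart on the third principal component, at 29.4 to 48.1 against -41.4 to -5.78, and values from replicates 2 and 3 only are given where they end a member's call or change a list count.

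The 5 genes did not move as a group. INSIG1 fell on the first day, returned and ended above its starting level, and SCARB1 fell on the first day and stayed low. The NPC2 probe set used was higher than day 0 on days 2, 4 and 7 and ABCA1 on days 2 and 7, and SQLE passed the test in none of the comparisons. On day 1 against day 0, 0 members rose and 2 fell (12.5% of all probe sets were called, 6.47% as higher and 6.03% as lower), and the arrays of 3 of the 5 did not overlap, against 37% of probe sets. On day 7 against day 0, 3 rose and 1 fell, against a share of 16.6% called, 9.36% as higher and 7.28% as lower, and the arrays of 4 of the 5 did not overlap, against 46.5%. The rises include NPC2, whose probe set was the brightest of its gene only from day 2 on, so that the choice by overall mean favored it. Over the whole time course the limma F test called 4 of the 5 genes, against 23.6% of all probe sets.

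**Figure D1:**
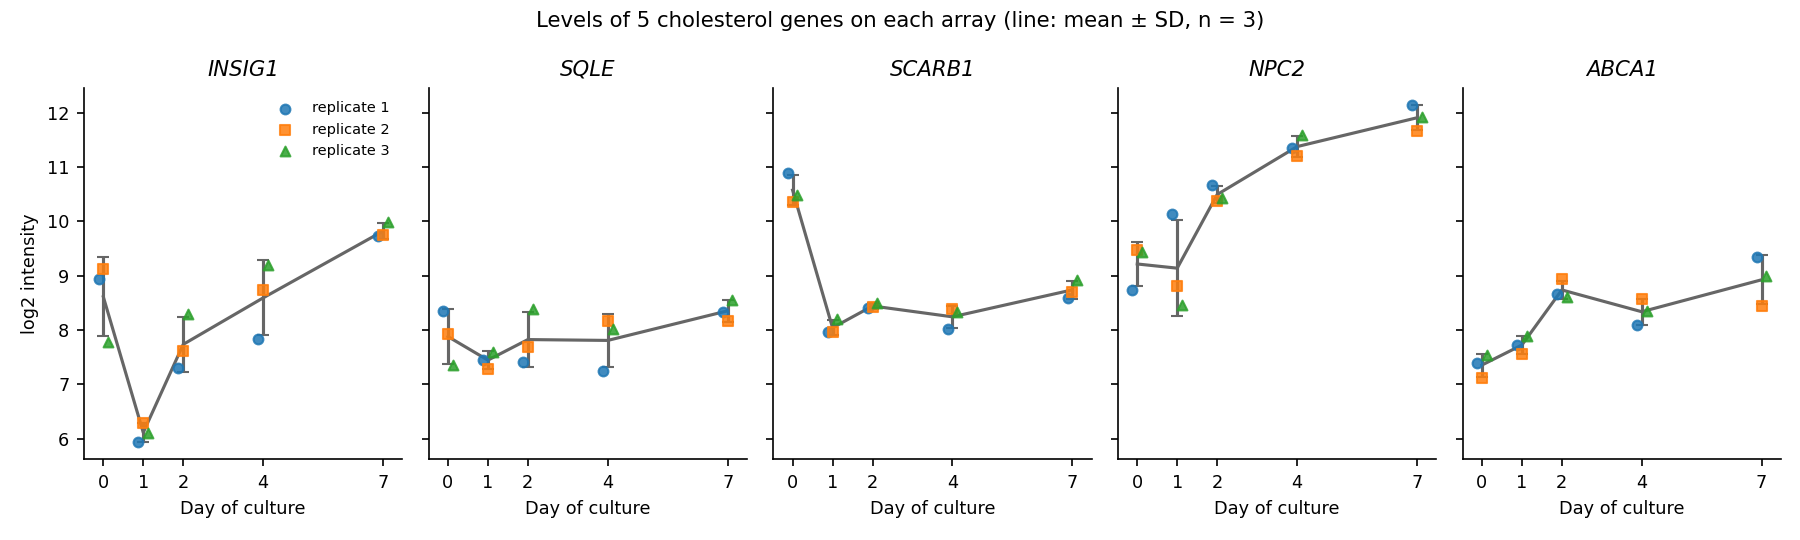
Log2 intensity of the 5 genes (y axis) on days 0, 1, 2, 4 and 7 of culture (x axis), 1 panel for each gene. Points are single arrays by replicate number, and the line and bars give the day mean ± SD of 3 arrays; INSIG1 dips to 6.11 on day 1 and SCARB1 drops from 10.57 to 8.04.

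INSIG1 holds the SREBP complex back in the endoplasmic reticulum and is itself an SREBP target. On day 0 its log2 intensities were 8.93, 9.13 and 7.78 in replicates 1, 2 and 3. On day 1 they were 5.94, 6.30 and 6.10, all below the array medians. Every day 1 array was thus below every day 0 array. The day means ± SD (n = 3) were 8.61 ± 0.73 and 6.11 ± 0.18, a fall of 5.65-fold (-2.50 ± 0.37 SE, limma adjusted p = 2.32e-04). In RNA of whole cultures, fewer cells that express a gene and less of its RNA per cell cannot be told apart, here or for any gene below.

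The INSIG1 day mean was then higher at each later day. The arrays gave 7.30, 7.61 and 8.30 on day 2 and 7.84, 8.73 and 9.20 on day 4. By day 7 they gave 9.72, 9.75 and 9.98. The 3 arrays of day 7 were the highest of all 15 and the closest together, with a mean of 9.82 ± 0.14 (SD). From day 1 to day 7 INSIG1 rose 13.0-fold (3.71 ± 0.37 SE, adjusted p = 1.34e-05), and 0.404% of probe sets changed by more in that comparison.

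The single steps of this return were less certain than the whole. INSIG1 rose from day 1 to day 2 by 1.62 ± 0.37 (limma adjusted p = 0.0206), and this call was lost when any 1 of 5 of the 6 arrays of those days was left out (adjusted p = 0.0536 to 0.108). The step from day 2 to day 4 was 0.86 (adjusted p = 0.317) and that from day 4 to day 7 was 1.23 (adjusted p = 0.593), neither past the test. The day 4 mean of 8.59 ± 0.69 differed by -0.02 from day 0 (adjusted p = 0.976, 95% interval -0.83 to 0.79), and by 0.52 with replicates 2 and 3 only. Against day 2 INSIG1 rose by 2.08 on day 7 (adjusted p = 0.00308), in a comparison added after the values were seen.

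INSIG1 ended above its level in fresh cells, with values of the 2 days that did not overlap. The rise from day 0 to day 7 was 2.31-fold (1.21 ± 0.37 SE, limma adjusted p = 0.0242, 95% interval 0.40 to 2.01). Its size rests in part on day 0 replicate 3, the lowest array of that day at 7.78. Without that array the change was 0.79 (adjusted p = 0.118), and the fall on day 2 against day 0, which did not pass with all arrays, became -1.29 (adjusted p = 0.0169). The call was also lost without day 7 replicate 2 (adjusted p = 0.0526) or replicate 3 (adjusted p = 0.0768) and after a second quantile normalization (1.07, adjusted p = 0.0530), and the mean of both INSIG1 probe sets changed by 0.99.

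A second INSIG1 probe set, close to the lower quartile of the arrays, went from a mean of 5.15 on day 0 to 4.62, 4.61 and 4.90 and reached 5.92 on day 7. It rose from day 1 to day 7 by 1.30 ± 0.23 (limma adjusted p = 0.00133). Its change on day 1 was -0.54 (adjusted p = 0.118), so that at this level the early fall was not past the test. Ordered by day mean, the main probe set ran from day 1 through days 2, 4 and 0 to day 7, and of these neighbours days 1 and 2 differed and days 0 and 7 differed, while days 2 and 4 and days 4 and 0 did not pass the test.

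SQLE, squalene epoxidase, adds oxygen to squalene in a rate-controlling step of synthesis and is also an SREBP target. Its log2 intensities were 8.35, 7.93 and 7.36 on day 0 and 7.45, 7.28 and 7.60 on day 1. They were 7.40, 7.68 and 8.39 on day 2 and 7.25, 8.17 and 8.01 on day 4. On day 7 they were 8.33, 8.17 and 8.56. The ranges of days 0, 1, 2 and 4 overlapped one another, and those of day 7 lay above all arrays of day 1.

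The SQLE means were 7.88 ± 0.50 (SD, n = 3) on day 0, 7.45 ± 0.16 on day 1 and 8.35 ± 0.20 on day 7, so the order of days 1, 0 and 7 was that of INSIG1 over a narrower span. The limma F test over the time course gave an adjusted p of 0.212. Day 1 differed from day 0 by -0.43 ± 0.30 (adjusted p = 0.358), with a 95% interval of -1.08 to 0.21. Day 7 differed from day 0 by 0.47 (adjusted p = 0.265, interval -0.17 to 1.12), which leaves room for a change of either sign. The largest difference, 0.91 ± 0.30 between days 1 and 7, had an adjusted p of 0.0499 and lay under the minimum change. No neighbours in the order of SQLE day means, which ran from day 1 through days 4, 2 and 0 to day 7, differed past the test.

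SCARB1 is the scavenger receptor that takes cholesteryl esters from high-density lipoprotein, a main supply for steroid-producing cells. Of the 5 genes it had the smallest adjusted p on day 1 against day 0. The day 0 arrays stood at 10.88, 10.36 and 10.48 and the day 1 arrays at 7.97, 7.96 and 8.20. The fall was 5.79-fold, from a mean of 10.57 ± 0.27 (SD, n = 3) to 8.04 ± 0.14 (-2.53 ± 0.16 SE, limma adjusted p = 2.01e-07).

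SCARB1 did not return to its day 0 level. Its values were 8.40, 8.42 and 8.51 on day 2 and 8.01, 8.38 and 8.33 on day 4. On day 7 they reached 8.59, 8.70 and 8.92. All 12 later arrays lay below the lowest day 0 array. Against day 0 the gene was lower by 4.38-fold on day 2, 5.03-fold on day 4 and 3.57-fold on day 7, the last a change of -1.84 ± 0.16 (adjusted p = 9.38e-07). Day 7 stood above day 1 by 0.70 ± 0.16 (adjusted p = 0.00703), with no overlap of arrays but under the minimum change. In the order of day means, days 1, 4, 2, 7 and 0, only days 7 and 0 differed past the test among neighbours. The SCARB1 falls against day 0 were called under all alternatives tried. Of the 10 granulosa markers 7 fell on day 1, 5 on day 2, 6 on day 4 and 6 on day 7 against day 0, while 1 (FSHR) rose on day 2, and their part in the SCARB1 values was not tested. Shares of all probe sets called as lower on those days were 6.03%, 6.09%, 6.59% and 7.28%, and 7.68% were called as higher on day 2.

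NPC2 is a small protein of the late endosome and lysosome that binds cholesterol and hands it to the membrane protein NPC1 for export. On the probe set used its log2 intensities were 8.74, 9.47 and 9.44 on day 0. Day 1 gave 10.14, 8.81 and 8.47, with replicate 1 well above the other two. The day 1 mean of 9.14 ± 0.88 (SD, n = 3) differed from the day 0 mean of 9.21 ± 0.41 by -0.08 (limma adjusted p = 0.912).

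From day 2 on the NPC2 arrays left that range. They stood at 10.67, 10.38 and 10.43 on day 2 and at 11.34, 11.20 and 11.58 on day 4. Day 7 gave 12.13, 11.67 and 11.92, which lies above every earlier array. The rise against day 0 was 2.43-fold on day 2 (adjusted p = 0.0118), 4.47-fold on day 4 and 6.46-fold on day 7 (2.69 ± 0.34 SE, adjusted p = 3.19e-05). Against day 1 it was 2.77 ± 0.34 on day 7 (adjusted p = 6.58e-05). The day 2 call was lost without day 0 replicate 1 (1.04, adjusted p = 0.0540) and with replicates 2 and 3 only (0.95), and that from day 1 to day 2 (1.36, adjusted p = 0.0300) was lost without any 1 of 5 of the 6 arrays. Among neighbours in the order of day means (days 1, 0, 2, 4 and 7), only days 0 and 2 differed past the test.

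The NPC2 rise was not seen on the other probe sets of the gene. Of the 3 probe sets, which the annotation ties to the same transcript accession, a second is also bright, with an overall mean of 9.88 against 10.43 for the first. On days 0 and 1 it was the brighter of both. Its day means were 10.10 ± 0.20 on day 0, 9.85, 10.07, 9.64 and, on day 7, 9.74 ± 0.02 (SD, n = 3). Day 7 differed from day 0 by -0.36 ± 0.16 there (limma adjusted p = 0.113), the opposite sign, and the F test gave an adjusted p of 0.119. The third probe set was dim, at 4.85 to 5.08, with an F test adjusted p of 0.614. With the mean of the 3 probe sets NPC2 changed by 0.84 on day 7 (adjusted p = 6.61e-04), under the minimum change, and was called on no day against day 0. The sequences of these probe sets were not used here, so which of them follows NPC2 was not tested.

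**Figure D2:**
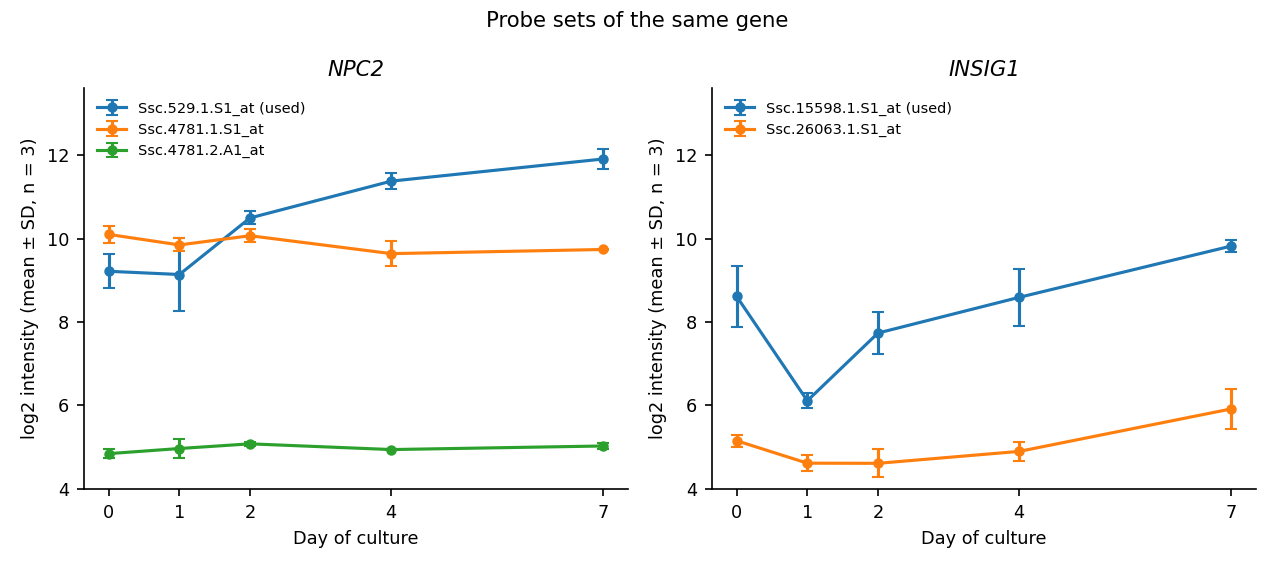
Log2 intensity (y axis, day mean ± SD of 3 arrays) by day of culture (x axis) of each probe set of NPC2 (3) and INSIG1 (2), the 2 members with more than 1. The bright NPC2 probe sets part after day 1, to 11.91 and 9.74 on day 7, while both INSIG1 probe sets have their highest mean on day 7.

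ABCA1 is the transporter that moves cholesterol and phospholipid from the plasma membrane to apolipoprotein A-I, the first step of high-density lipoprotein formation. Its log2 intensities were 7.40, 7.12 and 7.54 on day 0 and 7.72, 7.56 and 7.89 on day 1. The 2 days did not overlap, but the difference of 0.37 ± 0.21 did not pass the test (limma adjusted p = 0.254). On day 2 the arrays stood at 8.67, 8.93 and 8.61. The day mean of 8.74 ± 0.17 (SD, n = 3) was 2.61-fold above that of day 0, 7.35 ± 0.21 (1.38 ± 0.21 SE, adjusted p = 2.41e-04).

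ABCA1 then held a higher level. Day 4 gave 8.09, 8.57 and 8.35, and day 7 gave 9.33, 8.44 and 8.996, the widest spread of any day at 8.92 ± 0.45. Day 4 was 1.97-fold above day 0 (0.98, adjusted p = 0.00283), just under the minimum change. Day 7 was 2.97-fold above it (1.57 ± 0.21 SE, adjusted p = 6.20e-05). The day 4 change was at least 1 without day 0 replicate 1 or 3 or day 4 replicate 1, and was 1.13 with replicates 2 and 3 only. From day 1 the rise was 1.01 on day 2 (adjusted p = 0.0124) and 1.20 on day 7 (adjusted p = 0.00121), the latter 0.99 with replicates 2 and 3 only. The day 2 step fell under the limits after a second quantile normalization (0.99) or without day 1 replicate 2 (0.93, adjusted p = 0.0608) or day 2 replicate 2 (0.92, adjusted p = 0.0656). Days 2, 4 and 7 could not be separated from one another, with -0.40 (adjusted p = 0.456) from day 2 to day 4 and 0.59 (adjusted p = 0.815) from day 4 to day 7.

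ABCA1 and NPC2 are both abundant in macrophages, so markers of that cell type are given beside them. Of 6 measured macrophage markers only CD14 rose on day 7, from 4.87 to 6.54. Their mean per array lay between 4.51 and 4.85 on day 0 and between 4.63 and 4.75 on day 7, near the lower quartile of the arrays. On day 7 TYROBP stood at 5.54 and CD163, AIF1, MRC1 and ITGAM at 3.70 to 4.43, against a share of 16.6% of all probe sets called.

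**Figure D3:**
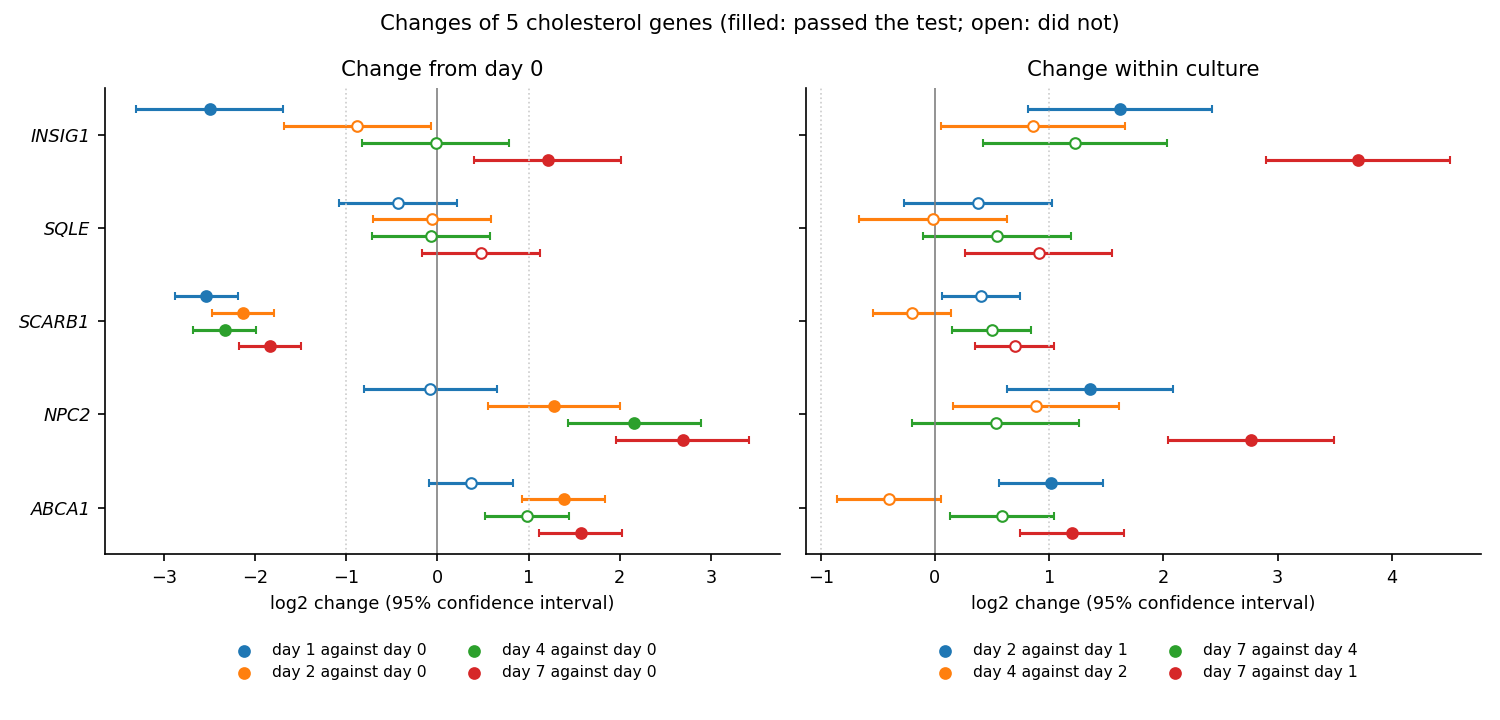
Log2 change (x axis, with 95% intervals from limma) of each of the 5 genes (y axis), against day 0 in the left panel and within the culture in the right, colored by comparison. Filled points passed the test and open points did not, and dotted lines mark the minimum change; INSIG1 spans -2.50 on day 1 to 1.21 on day 7 against day 0, and the SQLE points lie between -0.43 and 0.91.

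The comparisons of neighbouring days place the changes in time. Between days 1 and 2, 3 of the 5 genes rose (INSIG1, NPC2 and ABCA1) and 0 fell, against 3.04% of probe sets called, 2.04% as higher and 1% as lower. The arrays of 4 of the 5 did not overlap between those days, against 21% of probe sets. This count varied with the arrays used: it was 0 without day 1 replicate 2 or day 2 replicate 2 and 1 without replicate 3 of either day. The share of all probe sets called was then lower too, at 1.99% and 1.94% without replicate 2 of day 1 and day 2. Without replicate 3 of those days it was 2.69% and 1.88%. INSIG1 lost its call without replicate 2 of either day although its change was 1.71 and 1.68, against 1.62 with all arrays. Between days 2 and 4 limma called 0 of the 5, against 2.53% of probe sets called. Between days 4 and 7 it also called 0, against 0.0583% called (14 probe sets, or 41 with replicate number as a block). An unadjusted p under 0.05 was reached by 2 and 3 of the 5 in these steps. The share of all probe sets at that unadjusted limit was not counted. Between days 4 and 7, 4 of the 5 genes had arrays that did not overlap, each higher on day 7, against 10.6% of probe sets not overlapping.

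The remaining comparisons give the same genes at other intervals. On day 2 against day 0, ABCA1 and NPC2 rose and SCARB1 fell (13.8% of probe sets called, 7.68% as higher and 6.09% as lower). On day 4 against day 0, NPC2 rose and SCARB1 fell (15.9% called, 9.29% as higher and 6.59% as lower). From day 1 to day 7, 3 rose and 0 fell (9.03% called, 5.73% as higher and 3.31% as lower), and the arrays of all 5 genes did not overlap between those days, against 36.3% of probe sets. The 2 comparisons added after the values were seen called INSIG1 and NPC2 as higher, on day 4 against day 1 (7.66% called, 5.32% as higher and 2.34% as lower) and on day 7 against day 2 (4.73% called, 3.05% as higher and 1.67% as lower). The comparisons against day 0 share the same 3 control arrays.

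The genes of the pathway around INSIG1 and SQLE were taken as lists. Of 20 listed genes of cholesterol synthesis 11 were measured, SQLE among them. On day 1 against day 0, 4 fell and 1 rose, against 6.03% of all probe sets called as lower and 6.47% as higher. The median change was -0.82 against -0.00 over all probe sets. The falls were those of ACAT2, which condenses acetyl-CoA (-1.14), FDFT1, the squalene synthase (-1.41 ± 0.19, limma adjusted p = 1.04e-04), CYP51, the lanosterol demethylase (-1.37 ± 0.20), and MSMO1, a sterol oxidase (-1.28). HSD17B7, a ketoreductase that also makes estradiol, rose by 2.25 ± 0.31. The ACAT2 change was -0.92 without day 0 replicate 1 and -0.82 with replicates 2 and 3 only, and the mean of the MSMO1 probe sets changed by -0.57. HMGCS1, which makes the precursor of mevalonate, changed by -0.92 (adjusted p = 0.0181), under the minimum change.

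From day 1 to day 7 the synthesis list moved the other way, with 5 higher, 1 lower and a median of 0.91 against -0.06 over all probe sets (6 higher with replicates 2 and 3 only, MSMO1 being added). Of all probe sets 5.73% were called as higher and 3.31% as lower. FDPS, the farnesyl diphosphate synthase, rose by 1.46 ± 0.25 (limma adjusted p = 9.30e-04), CYP51 by 1.43 ± 0.20, ACAT2 by 1.32, SC5D, a sterol desaturase, by 1.20, and the sterol reductase TM7SF2 by 1.21 ± 0.32. The TM7SF2 call was lost without day 1 replicate 2 or 3 or day 7 replicate 3. HSD17B7 fell by 1.30 over this interval, a call lost without day 1 replicate 3 (-0.99) and with only the arrays of those days (adjusted p = 0.0667). On day 7 against day 0 limma called 0 of the 11, against 16.6% of all probe sets called. An unadjusted p under 0.05 was reached by 6 of the 11, and the share of all probe sets at that limit was not counted. The median was 0.18 against -0.05. INSIG1 was past the test in that comparison, and its difference from these genes was not tested. ACAT2, MSMO1, SC5D and INSIG2 were named after their values were seen.

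Of 19 listed genes of sterol sensing 10 were measured, and on day 1 INSIG1 and SREBF2 fell while 0 rose (median -0.53), against 6.03% of all probe sets called as lower. With replicates 2 and 3 only 4 fell, MYLIP and ERLIN2 being added. SREBF2, which encodes SREBP-2, fell by 1.28 ± 0.26 (limma adjusted p = 0.00206) on the brightest of its 4 probe sets, but the mean of the 4 changed by -0.49 (adjusted p = 0.344). It was also lower on day 2 (-1.36), where the mean of the 4 changed by -0.87 (adjusted p = 0.0749), and was -0.92 on day 7. On day 4 SREBF2 was called as lower too, at a mean of 8.24 against 9.32 on day 0. There the mean of the 4 changed by -0.93 (limma adjusted p = 0.0485), under the minimum change. With replicates 2 and 3 only the SREBF2 change on day 4 was -0.88 and not called. INSIG2, the homologue of INSIG1, differed by 0.13 on day 1 and -0.25 on day 7 (adjusted p = 0.883 and 0.720). SREBF1 changed by -0.28 on day 7 (adjusted p = 0.308) and the escort SCAP by -0.77 (adjusted p = 0.00420), under the minimum change. On day 7 INSIG1 rose and MYLIP, a ligase that degrades lipoprotein receptors, fell by 2.82 ± 0.57 (adjusted p = 0.00161), with a list median of -0.28. Of all probe sets 9.36% were called as higher and 7.28% as lower there, with a median of -0.05. NR1H3, the liver X receptor alpha that acts on ABCA1, rose from day 1 to day 7 by 1.04 ± 0.16 (adjusted p = 4.65e-04), and its change was 0.97 or 0.93 without day 1 replicate 2 or 3. Its means on days 0, 1, 2, 4 and 7 were 8.04, 7.55, 7.69, 8.13 and 8.58, and it was called on no day against day 0. On day 2, when ABCA1 had risen, the NR1H3 mean was thus below that of day 0.

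**Figure D4:**
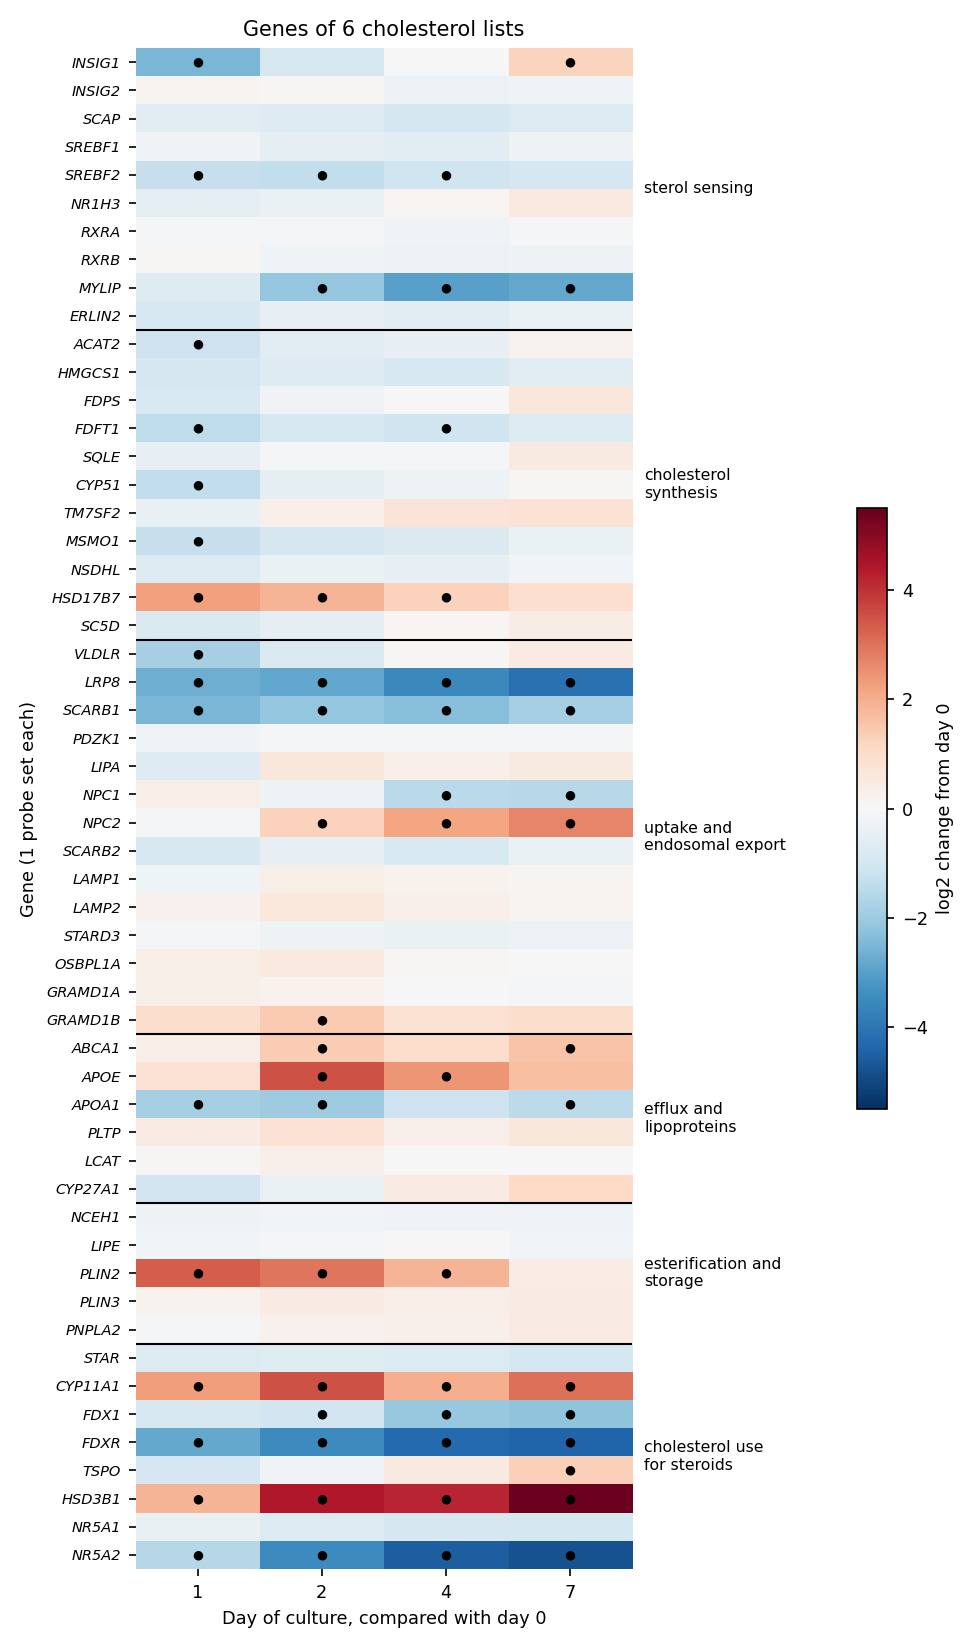
Log2 change against day 0 (color) of each measured gene of the 6 cholesterol lists (rows) by day (columns), with dots where the limma test was passed. Synthesis genes are mostly below 0 on day 1 (median -0.82) and lie on both sides of 0 on day 7 (median 0.18, from -0.75 to 0.95).

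The uptake and endosomal export list held 14 measured genes of 21, with SCARB1 and NPC2 among them. On day 1, 3 fell and 0 rose (median -0.15), namely SCARB1, the reelin receptor LRP8 and the lipoprotein receptor VLDLR. Of all probe sets 6.03% were called as lower, with a median of -0.00. With replicates 2 and 3 only, 5 fell. LRP8 stayed low like SCARB1, at a mean of 12.66 on day 0 and 8.54 on day 7 (-4.12 ± 0.27, limma adjusted p = 6.21e-08). VLDLR, named after its values were seen, instead came back from 8.40 on day 1 to 10.68 on day 7 (2.28 ± 0.28, adjusted p = 6.00e-05). On day 7 against day 0, 1 rose (NPC2) and 3 fell, SCARB1, LRP8 and NPC1 (median -0.04). Over all probe sets 9.36% were called as higher and 7.28% as lower, with a median of -0.05. NPC1, the partner that receives cholesterol from NPC2, moved opposite to the NPC2 probe set used, from 10.20 on day 0 and 10.56 on day 1 to 8.68 on day 7 (-1.52 ± 0.21 against day 0, adjusted p = 7.20e-05).

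The efflux and lipoprotein list held 6 measured genes of 11. On day 1, 0 rose and APOA1 fell. On day 7 against day 0, 1 rose (ABCA1) and 1 fell (APOA1), with a median of 0.86 against -0.05 over all probe sets. The shares of all probe sets called as higher and lower were 6.47% and 6.03% on day 1 and 9.36% and 7.28% on day 7. With replicate number as a block 3 rose on day 7 (ABCA1, APOE and CYP27A1) and 1 fell, and 2 fell on day 1 (APOA1 and CYP27A1). With replicates 2 and 3 only, 3 rose and 0 fell on day 7, and on day 1 APOE rose while APOA1 and CYP27A1 fell. APOE, an acceptor of exported cholesterol, had day means of 8.75 on day 0, 12.24 ± 1.35 (SD, n = 3) on day 2 and 10.40 ± 1.10 on day 7. Its rise was past the test on day 2 (3.49 ± 0.76, limma adjusted p = 0.00351) but not on day 7 (1.65, adjusted p = 0.122). APOA1, the acceptor of ABCA1, fell by 1.43 ± 0.48 on day 7 (adjusted p = 0.0364), a call lost without day 0 replicate 2 or 3 or day 7 replicate 1, the last of which left -0.76. CYP27A1, which makes an oxysterol, rose from day 1 to day 7 by 2.15 ± 0.41 (adjusted p = 0.00208).

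Storage and steroid use complete the routes of cholesterol. Of 9 listed storage genes 5 were measured, and 1 rose on day 1, the lipid droplet coat PLIN2, by 3.35 ± 0.28 (limma adjusted p = 1.87e-06), while INSIG1 and SCARB1 were at their lowest. Of all probe sets 6.47% were called as higher on day 1. PLIN2 returned from 11.77 on day 1 to 8.81 on day 7. On day 7 against day 0 limma called 0 of the 5, against 16.6% of all probe sets called. An unadjusted p under 0.05 was reached by 1 of the 5, and the share of all probe sets at that limit was not counted. PNPLA2, PLIN3 and NCEH1 changed by 0.45, 0.43 and -0.22. Of 8 measured genes of steroid use, 3 rose (CYP11A1, HSD3B1, TSPO) and 3 fell (FDX1, FDXR, NR5A2) on day 7 (median -0.95), the TSPO change being 0.96 with replicates 2 and 3 only. Over all probe sets 9.36% were called as higher and 7.28% as lower, with a median of -0.05. The cleavage enzyme CYP11A1 rose by 3.03 ± 0.71 and HSD3B1 by 5.38 ± 0.43, while the electron donor FDXR fell by 4.39 ± 0.20 and the receptor NR5A2 by 4.79 ± 0.33. STAR, the mitochondrial importer of cholesterol, changed by -0.96 (adjusted p = 0.0169), under the minimum change. ABCG1 and SOAT1 were not analysed here.

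The genes most like each member were found by Pearson r over the 15 arrays among 2144 genes whose day means range over at least 1. The arrays share day and replicate structure, so these values describe the course and are no test. INSIG1 was nearest to CYP51 (r = 0.95), RNASEH2C, a ribonuclease subunit, and AMACR, a racemase of branched-chain fatty acids and bile acid intermediates (0.94). SQLE, although not called, was nearest to SCD, a fatty acid desaturase (0.86), then PLAC8 (0.82) and INSIG1 (0.79). The SCD day means were 8.59, 6.98, 8.65, 8.27 and 9.72, with the low on day 1 and the high on day 7 that INSIG1 also had.

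ABCA1 was nearest to HSD3B1 (r = 0.94), PDZK1IP1 (0.94) and SHAS2 (0.93), the symbol of the array annotation. NPC2, on the probe set used, was nearest to PTN, a secreted growth factor, FAM114A1 and GLIPR1 (each 0.98). SCARB1 was nearest to SAT2, GSTZ1 (each 0.95) and JAK3. Among the members themselves, over 15 arrays, r was 0.79 for INSIG1 with SQLE (rho 0.72) and 0.77 for ABCA1 with NPC2 (rho 0.74). SCARB1 with ABCA1 had r = -0.48 but rho = -0.04, so the values and the ranks of the arrays gave different sizes.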

How the data were processed

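Per the submitters' processing notes, the deposited values are log2 intensities made by RMA, with no version given there; background correction and summarization were not redone. Their log2 scale was checked on the values (2.29 to 14.9). Of 24123 probe sets, 124 controls were left out. Of 23999 tested, 10069 had 1 symbol, 198 several and 13732 none.

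With limma 3.58.1 (R 4.3.3), 1 model of day as a factor was fitted over the 15 arrays (lmFit, eBayes), and the script was tested on simulated data. Correlations of same-day arrays were 0.963 to 0.996, and 0 of 105 array pairs were identical. The number of arrays limits the precision.

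The members and the gene lists were chosen with earlier results of these data known. The text names the members, up to 4 genes of each of 6 lists with the largest change on day 7 against day 0, 10 genes by name and the 3 genes most like each member. List genes outside this rule (and INSIG2, the homologue of a member) are named after their values were seen. List symbols were matched to the annotation also through RefSeq synonyms.

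Whether replicate numbers pair arrays was checked from the data alone: deviations of same-numbered arrays correlated above 0.1 in all comparisons except day 1 against day 0 (0.0609 to 0.333). The correlations were 0.473 to 0.573 for day 2 against day 1 and 0.416 to 0.727 for day 7 against day 4. The main model leaves replicate number out. Alternatives were 3 scalings, a filter on dim probe sets, eBayes settings, no minimum change, only the days compared, the mean of a gene's probe sets, a replicate block and leaving out each array. The use of replicates 2 and 3 only was chosen after seeing the data.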

Additional observations from a re-analysis of the deposited data

How the results depend on the processing

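Of 1000 values of the 40 member changes over all alternatives, 944 kept their direction and side of the limits, 30 lost the call, 8 gained it and 18 changed sign, all of the last in changes that were not called. Leaving out each array in turn, members called ranged from 2 to 2 (day 1 against day 0), 2 to 4 (day 2), 2 to 3 (day 4) and 3 to 4 (day 7), and from 0 to 3 from day 1 to day 2, 0 to 0 in both later steps, 2 to 3 from day 1 to day 7 and 4 to 4 over the time course. Shares of all probe sets called against day 0 were then 11.5% to 12.8%, 13.2% to 14.1%, 15.2% to 16.3% and 15.8% to 17.2%. From day 1 they were 1.88% to 4.11% on day 2 and 8.46% to 9.31% on day 7. In both later steps they were 1.75% to 2.72% and 0.0167% to 0.0625%. With no minimum change 5 members were called from day 1 to day 7, against 18.9% of probe sets under that setting. With the mean of a gene's probe sets the counts against day 0 were 2 (day 2), 1 (day 4) and 2 (day 7), with 1 from day 1 to day 2, 2 from day 1 to day 7 and 3 over the time course, since NPC2 and INSIG1 have probe sets that moved less. The share over all genes was not counted under that setting. The changes of sign were in SQLE on day 2 (-0.34 to 0.18 over arrays left out, 0.39 with replicates 2 and 3 only), on day 4 (-0.33 to 0.21, and 0.45) and from day 2 to day 4 (-0.23 to 0.27, and 0.0532), in INSIG1 on day 4 (-0.44 to 0.36, and 0.52), and in NPC2 on day 1 (-0.58 to 0.26). With replicate number as a block, members called were 2, 3, 2 and 4 on days 1, 2, 4 and 7 against day 0 and 3 from day 1 to day 7, and no member's call changed. Shares of all probe sets called with the block were 13.4%, 14.6%, 16.7% and 17.5% on those days and 9.92% from day 1 to day 7. Of 1900 values of 76 changes of list genes, 1814 kept direction and call and 86 lost the call.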
